A study of Mus musculus with 12 samples.

Results

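The genes described here are 23 genes of fatty acid oxidation and 15 genes of fatty acid synthesis, desaturation and elongation, 38 in all of the 21878 genes counted. They were listed by pathway, and a listed gene was kept when it had at least 10 counts in at least 3 of the 12 libraries. All 38 listed genes met that minimum, which 14389 genes of the whole table met, and all 38 were among the 14330 genes tested. Elovl3 came closest to the minimum, with 10 or more counts in 8 libraries, whereas every other member reached it in 12. Elovl3 passed through the groups in which it was high, because its untreated libraries held 2, 2 and 1 counts. Its values are therefore given as a description, and counts of members that passed are over the other 37 unless stated.

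Total RNA was sequenced from 12 samples labelled Hepa1-6, a hepatoma line derived from a mouse liver tumour, and the tissue is given as liver. In the combination group, 3 samples had received mouse interferon alpha (mIFNalpha) together with an anti-PD-1 antibody. In the antiPD1 group 3 samples had received the anti-PD-1 antibody alone, in the IFNa group 3 had received mIFNalpha alone, and the last 3 were untreated. Interferon alpha is an antiviral cytokine, and PD-1 is an inhibitory receptor of T cells. No dose, duration or route is given in the sources used here, and none says whether the untreated samples had a vehicle or a control antibody. Nothing states that the 3 samples of a group were separate tumours, animals or cultures, so the p-values measure the spread between these samples only, which may be technical.

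Fatty acid oxidation cuts acyl chains by one acetyl unit per round in mitochondria and, for very long chains, in peroxisomes. Long chains enter mitochondria as carnitine esters, a chain-length series of dehydrogenases starts each round, and the nuclear receptor PPARalpha, encoded by Ppara, switches the pathway on during fasting. Synthesis runs in the cytosol, where citrate is split to acetyl-CoA, carboxylated to malonyl-CoA and built into palmitate, which elongases and desaturases then modify. The transcription factors encoded by Srebf1 and Mlxipl drive this program in the fed liver, and malonyl-CoA blocks the entry of long chains into mitochondria.

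Each library held between 31317989 and 38536732 counts. Transcripts of hepatoma, adult hepatocytes and immune cells were all present. The fetal liver protein gene Afp ranged from 5702 to 6920.0 CPM (counts scaled to the size of the library) in combination, from 6254 to 7476 in antiPD1, from 7769.8 to 11179 in IFNa and from 9610.1 to 10865 in untreated libraries, and it fell in both the combination and the antiPD1 group. The T cell co-receptor Cd8a was at 17.6 to 22.2 CPM in combination, 12.3 to 41.5 in antiPD1, 3.18 to 8.99 in IFNa and 5.32 to 5.86 in untreated libraries. A list of 21 adult hepatocyte markers without Alb summed to 1139 to 3491 CPM in combination, 1123 to 6085 in antiPD1, 938 to 2309 in IFNa and 682 to 1194 in untreated libraries. AntiPD1 replicate 3 (6085 CPM), combination replicate 1 (3491 CPM) and IFNa replicate 1 (2309 CPM) stood apart from their groups on that sum. Alb itself was at 6865 to 11104 CPM in combination, 7249 to 15964 in antiPD1, 9499 to 10413 in IFNa and 10244 to 11792 in untreated libraries. With Alb the sums were 8563 to 14594, 8372 to 22048, 10670.0 to 11808 and 11081 to 12474 CPM in the same order. In IFNa replicate 1 the markers Mup3 and Mup20 were low in their group, at 0.661 and 2.28 CPM. In bulk RNA of this kind, fewer cells of a type and less RNA per cell cannot be told apart.

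Per length, the members covered a wide range of levels. In the deposited FPKM (fragments per kilobase, scaled to depth), the highest member in untreated libraries was Scd2, a stearoyl-CoA desaturase, at 221, 235 and 155 FPKM, and its range lay clear of every other member. In the other groups Scd2 had 141, 126 and 133 FPKM in combination, 155, 107 and 44.0 in antiPD1 and 200.3, 121 and 106 in IFNa libraries. The highest oxidation gene was Acadl, the long-chain acyl-CoA dehydrogenase, which had 75.0, 75.9 and 70.1 FPKM in combination libraries, 75.4, 71.9 and 86.0 in antiPD1 libraries, 77.5, 99.6 and 106 in IFNa libraries and 94.4, 91.6 and 92.7 in untreated libraries. Acadl was also clear of the gene below it, the electron transfer flavoprotein subunit Etfb, whose untreated mean was 68.3 FPKM. Most of the ranks further down could not be separated, since the untreated range of a gene overlapped that of its neighbour.

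At the low end stood genes that are abundant in adult liver. Ppara, the lowest oxidation gene, had 1.76, 0.413 and 0.562 FPKM in combination, 0.629, 0.299 and 1.76 in antiPD1, 1.21, 0.476 and 0.315 in IFNa and 0.380, 0.275 and 0.441 in untreated libraries. Elovl3, an elongase of saturated and monounsaturated chains and the lowest synthesis gene, was at 0.0136 to 0.0287 FPKM in untreated libraries. Acacb, the mitochondrial acetyl-CoA carboxylase, averaged 0.117 FPKM in untreated libraries, against 3.29 FPKM for the cytosolic enzyme Acaca. The plot of all members by library shows which of them varied most.

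**Figure D1:**
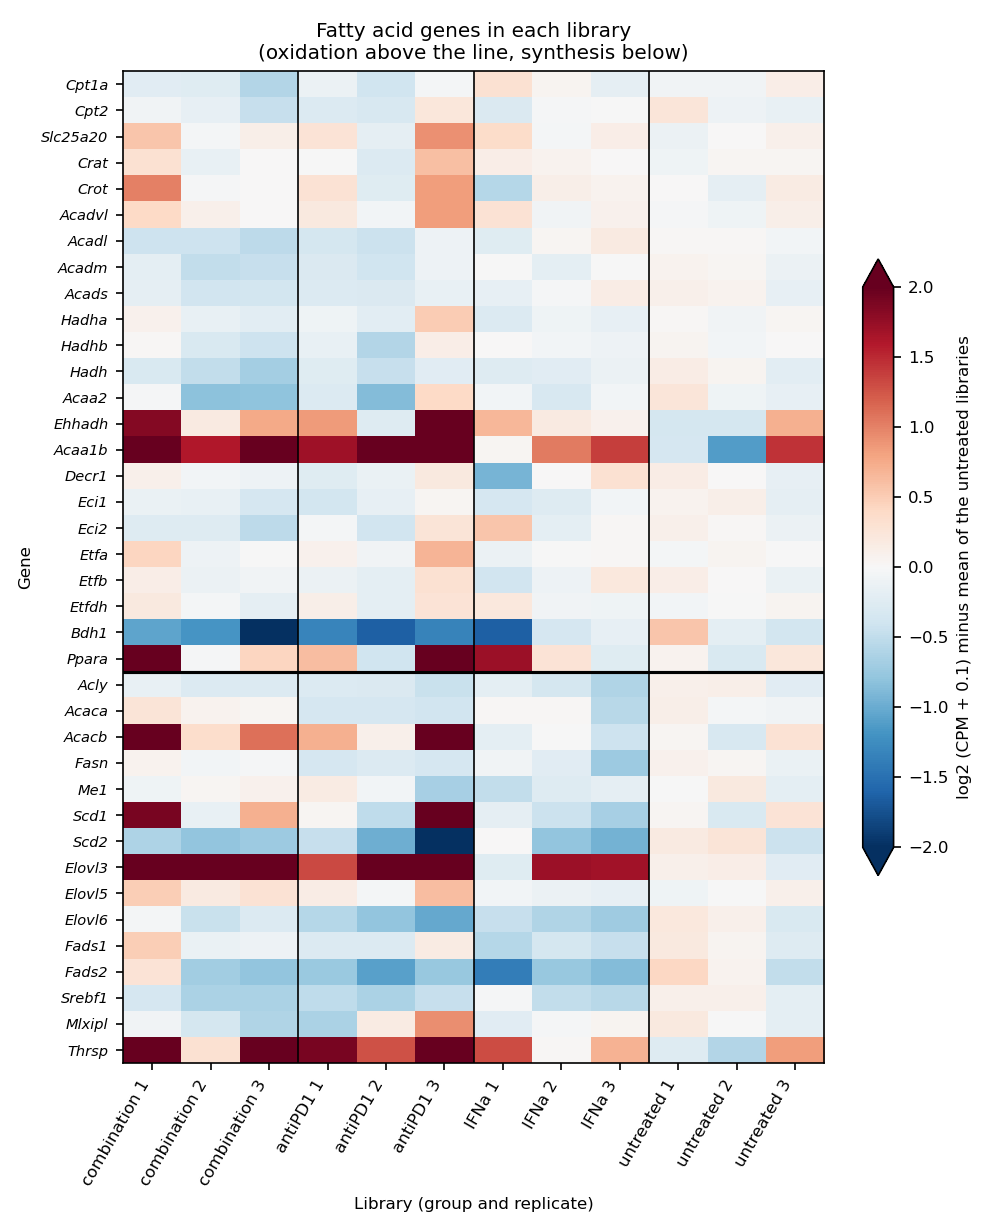
Each row is 1 of the 38 genes and each column 1 library; colour gives log2 (CPM + 0.1) minus the mean of the untreated libraries, cut at 2.0 in either direction. Bdh1 is blue in all combination and antiPD1 libraries, Elovl3 is red in all of them, the strongest reds of Acaa1b, Ehhadh, Acacb, Scd1, Ppara and Thrsp stand in combination replicate 1 and antiPD1 replicate 3, and most synthesis genes are pale blue in the IFNa libraries.

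The first comparison set the combination against untreated samples. Here 5 of the 37 members passed the test, all of them lower. Those that fell were the mitochondrial dehydrogenase genes Acadl, Acadm and Hadh, then Bdh1, which interconverts the ketone bodies acetoacetate and beta-hydroxybutyrate, and Srebf1. Among all tested genes 12.6% passed in this comparison, 7.58% higher and 5.0% lower, by edgeR's quasi-likelihood test with Benjamini-Hochberg adjustment and a threshold of 0.05.

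Hadh (chr3:131233419-131272101, mm10, minus strand) encodes the mitochondrial short-chain 3-hydroxyacyl-CoA dehydrogenase. It had 111, 97.9 and 86.1 CPM in combination, 117, 99.8 and 118 in antiPD1, 116, 118 and 127 in IFNa, and 153, 143 and 119 in untreated libraries. All 3 combination libraries lay below all 3 untreated libraries, and the antiPD1 libraries did too, though by a narrow gap. The log2 fold change of the combination was -0.49 ± 0.12 (SE; edgeR adjusted p = 0.0318).

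Acadm (chr3:153922357-153944632, minus strand) encodes the medium-chain acyl-CoA dehydrogenase. Its level was 90.6, 73.6 and 75.1 CPM in combination, 84.6, 78.3 and 96.4 in antiPD1, 103, 90.8 and 103 in IFNa, and 109, 106 and 95.9 in untreated libraries. The combination libraries were below the untreated ones without overlap, while antiPD1 and IFNa each overlapped the untreated range. The combination's log2 fold change was -0.38 ± 0.11 (edgeR adjusted p = 0.0490), close to the threshold.

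Acadl (chr1:66830839-66863277, minus strand) had 181, 182 and 169 CPM in combination, 188, 178 and 224 in antiPD1, 204, 249 and 273 in IFNa, and 245, 245 and 233 in untreated libraries. Combination and antiPD1 libraries were all below the untreated ones, and the IFNa libraries spread to both sides. The log2 fold change of the combination was -0.45 ± 0.12 (edgeR adjusted p = 0.0358). Acads, the short-chain dehydrogenase of the same family, was lower in every combination library but did not pass (-0.31 ± 0.11, edgeR adjusted p = 0.0770). The very-long-chain Acadvl was not lower (0.18 ± 0.20, edgeR adjusted p = 0.573). Exons of Acadvl overlap those of Dvl2 on the opposite strand, and the strand setting of the counting is not given, so its value is uncertain.

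The 250 bases before the RefSeq start sites of Hadh, Acadm and Acadl, the 3 mitochondrial chain-shortening genes that fell, are shown on the gene's own strand in GRCm38.p6 so that their makeup can be compared. Capitals mark the letters AGGTCA (the core binding letters of nuclear receptors such as PPARalpha), GGGCGG (the GC box) and CCAAT on either strand, and no marked motifs overlap.
Hadh, chr3:131272102-131272351: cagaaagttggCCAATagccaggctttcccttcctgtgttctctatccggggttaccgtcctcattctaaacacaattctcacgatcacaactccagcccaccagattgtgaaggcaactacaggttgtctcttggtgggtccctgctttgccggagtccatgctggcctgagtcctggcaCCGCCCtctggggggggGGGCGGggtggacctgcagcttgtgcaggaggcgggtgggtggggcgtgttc
Acadm, chr3:153944644-153944893: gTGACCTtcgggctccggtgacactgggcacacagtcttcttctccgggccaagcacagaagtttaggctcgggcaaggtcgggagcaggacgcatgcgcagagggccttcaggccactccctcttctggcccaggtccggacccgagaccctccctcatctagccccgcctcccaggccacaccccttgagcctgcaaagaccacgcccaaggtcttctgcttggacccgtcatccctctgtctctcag
Acadl, chr1:66863310-66863559: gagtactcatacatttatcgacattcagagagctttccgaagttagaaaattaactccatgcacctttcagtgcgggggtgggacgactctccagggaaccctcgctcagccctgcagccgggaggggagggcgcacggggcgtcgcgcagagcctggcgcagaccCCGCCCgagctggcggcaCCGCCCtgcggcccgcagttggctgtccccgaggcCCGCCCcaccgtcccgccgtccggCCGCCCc
Hadh held 2 GC boxes and 1 CCAAT, Acadl held 4 GC boxes, and Acadm held 1 AGGTCA and neither of the others. Promoters were listed for 31 of the 38 members. At least 1 promoter held AGGTCA in 5 of these 31 genes, GGGCGG in 18 and CCAAT in 16. Over all 32851 promoters of that length, counted per promoter, the shares with a match were 14%, 32.7% and 33.8%. Of the 27 members with 1 promoter listed, 18.5%, 55.6% and 48.1% had a match. A match of letters is not a binding site.

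Bdh1 (chr16:31422280-31458901, plus strand) showed the largest fall. It had 35.7, 32.7 and 17.5 CPM in combination, 29.5, 23.9 and 29.4 in antiPD1, 23.8, 58.8 and 66.4 in IFNa, and 109, 64.7 and 57.9 in untreated libraries. Every combination and antiPD1 library was below every untreated one, and IFNa replicate 1 was as low as they were. The log2 fold change of the combination was -1.43 ± 0.39 (edgeR adjusted p = 0.0402).

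Srebf1 (chr11:60199089-60222581, minus strand), which encodes SREBP-1, had 139, 113 and 113 CPM in combination, 124, 113 and 127 in antiPD1, 172, 124 and 119 in IFNa, and 189, 188 and 152 in untreated libraries. Combination and antiPD1 libraries were all below the untreated ones. The log2 fold change of the combination was -0.54 ± 0.15 (edgeR adjusted p = 0.0431). Exons of Srebf1 overlap those of Rai1 on the opposite strand, the strand setting of the counting is not given in the sources used here, and the value of Srebf1 is therefore uncertain. Rai1 itself had a log2 fold change of -0.00 ± 0.15 (edgeR adjusted p = 0.995). Crat and Etfdh share this limit, because their exons overlap those of Dolpp1 and 4930579G24Rik on the opposite strand.

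**Figure D2:**
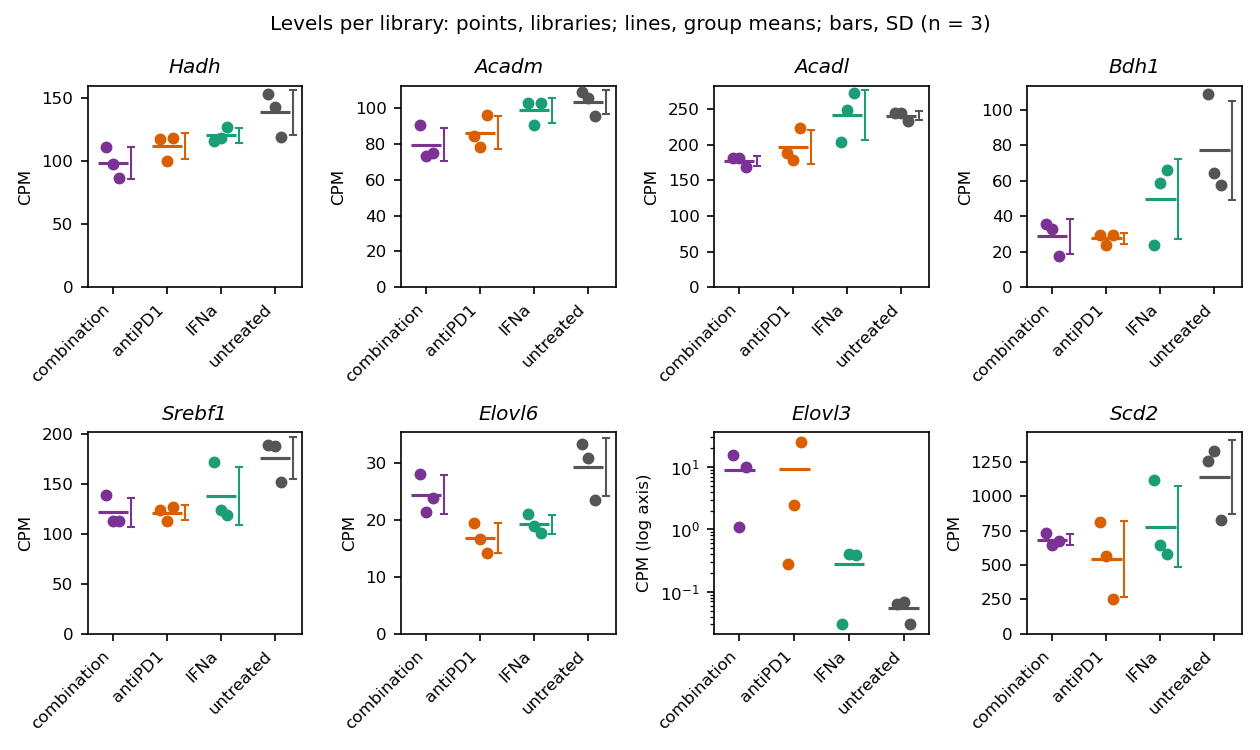
Scaled CPM of 8 members in each library, with points for libraries, lines for group means and bars for the SD (n = 3 each); the Elovl3 axis is logarithmic and has no SD bars. Acadl, Acadm, Hadh, Bdh1 and Srebf1 of the combination group lie below the untreated points, Elovl6 is lowest in antiPD1, and Elovl3 of combination and antiPD1 lies above the untreated points.

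Among the oxidation genes as a set, 4 of 23 fell, 0 rose and the median log2 fold change was -0.08, beside -0.01 for all tested genes. Without overlap, 7 of the 23 were lower and 1 was higher in combination than in untreated libraries, and 24.8% and 24.7% of all tested genes were. The carnitine shuttle did not pass: Cpt1a, the outer membrane transferase that malonyl-CoA inhibits, had a log2 fold change of -0.34 ± 0.15 (edgeR adjusted p = 0.143), and the inner membrane transferase Cpt2, the carrier Slc25a20 and the acyltransferases Crat and Crot ranged from -0.24 to 0.41. Neither did the trifunctional protein subunits Hadha (-0.08 ± 0.17) and Hadhb (-0.22 ± 0.16), nor the electron acceptors Etfa, Etfb and Etfdh, which lay between -0.02 and 0.12. The auxiliary isomerases and reductase for unsaturated chains, Eci1, Eci2 and Decr1, ranged from -0.34 to -0.02, and the thiolase Acaa2 was at -0.51 ± 0.30.

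Of the 14 synthesis genes besides Elovl3, Srebf1 fell and 13 did not pass, with a median log2 fold change of 0.00. At an unadjusted p under 0.05 there were 9 of the 37 members, and 31.8% of all tested genes. The core enzymes of palmitate synthesis were near the untreated level. Fasn, the fatty acid synthase, averaged 260.0 ± 12.2 CPM in combination and 260.2 ± 20.3 in untreated libraries (SD, n = 3 each). Acaca had a log2 fold change of 0.12 ± 0.14, and Acly, which splits citrate, one of -0.24 ± 0.12. Me1, the malic enzyme that supplies NADPH, was at 0.00 ± 0.19. Scd2 was lower in every combination library (-0.73 ± 0.37, edgeR adjusted p = 0.201), and the elongase Elovl5 was higher in every one (0.32 ± 0.15, edgeR adjusted p = 0.166), neither past the test.

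No call of this comparison held in every fit with 1 library left out. Over all tested genes the number passing also moved widely in such fits, as given at the end. With Elovl3 included, the count of members passing was 6 in the full fit, 0 without untreated replicate 1, untreated replicate 2 or any 1 of the combination libraries, 3 without IFNa replicate 2 and 10 without antiPD1 replicate 3. The directions did not change in these fits, with log2 fold changes of -0.47 to -0.41 for Acadl, -0.48 to -0.33 for Acadm, -0.59 to -0.41 for Hadh, -1.62 to -1.10 for Bdh1 and -0.64 to -0.49 for Srebf1. With the mean hepatocyte marker level of each library as a covariate, a fit added after seeing the data, none of them passed and the log2 fold changes were -0.50 for Acadl (edgeR adjusted p = 0.0814), -0.51 for Acadm (0.0533), -0.53 for Hadh (0.0831), -1.28 for Bdh1 (0.150) and -0.66 for Srebf1 (0.0755).

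The second comparison set antiPD1 against untreated samples. Bdh1, Srebf1 and Elovl6 fell, 3 of the 37 members, and none rose. Over all tested genes 14.8% passed, 9.76% higher and 5.08% lower. This comparison shares its untreated libraries with the first, so the values of both are set side by side and not counted as separate support.

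Elovl6 (chr3:129532355-129638495, plus strand) encodes the elongase that turns palmitate into stearate. It had 28.1, 21.3 and 23.8 CPM in combination, 19.4, 16.7 and 14.2 in antiPD1, 21, 19 and 17.6 in IFNa, and 33.3, 30.9 and 23.5 in untreated libraries. All antiPD1 and all IFNa libraries were below all untreated ones, whereas the combination overlapped the untreated range and lay above both single treatments. The log2 fold change was -0.80 ± 0.17 for antiPD1 (edgeR adjusted p = 0.0208), and -0.26 ± 0.17 for the combination (edgeR adjusted p = 0.305). Its promoter is shown because Elovl6 is the member with the smallest p for the interaction described further on, with AGGTCA marked as before and the other motifs not found.
Elovl6, chr3:129532136-129532385: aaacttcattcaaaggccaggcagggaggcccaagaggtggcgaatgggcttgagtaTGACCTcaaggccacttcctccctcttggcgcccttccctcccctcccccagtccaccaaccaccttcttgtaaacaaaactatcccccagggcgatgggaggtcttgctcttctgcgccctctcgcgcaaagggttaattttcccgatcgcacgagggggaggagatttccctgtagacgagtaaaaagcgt

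The log2 fold change of antiPD1 was -1.49 ± 0.39 for Bdh1 (edgeR adjusted p = 0.0329) and -0.54 ± 0.15 for Srebf1 (edgeR adjusted p = 0.0385), whose overlap partner Rai1 was at -0.24 ± 0.15 (edgeR adjusted p = 0.288). The 3 dehydrogenases that fell in the combination did not pass here. Acadl had a log2 fold change of -0.29 ± 0.12 (edgeR adjusted p = 0.108), Acadm one of -0.26 ± 0.11 (0.125) and Hadh one of -0.31 ± 0.12 (0.103). The median was -0.03 over the 23 oxidation genes, of which 1 fell, and -0.24 over the 14 synthesis genes, of which 2 fell, beside -0.01 for all tested genes.

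More of the synthesis genes lay below the untreated libraries without passing. Without overlap, 7 of the 14 were lower and 1, Thrsp, was higher in antiPD1, against 18.5% and 17.5% of all tested genes. Fads2, the delta-6 desaturase of polyunsaturated chains, had 54.6, 27.7 and 26.1 CPM in combination, 26.9, 21.3 and 26.8 in antiPD1, 17.3, 26.8 and 24.7 in IFNa, and 60, 47.7 and 32.3 in untreated libraries. Its antiPD1 log2 fold change was -0.90 ± 0.31 (edgeR adjusted p = 0.0690). Acly was at -0.34 ± 0.12 (0.0859), Acaca at -0.35 ± 0.14 (0.111) and Fasn at -0.32 ± 0.14 (0.138), each lower in 3 of 3 antiPD1 libraries than in any untreated library.

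The antiPD1 calls did not hold in every fit, and the number passing over all tested genes also moved widely, as given at the end. With 1 library left out, the log2 fold changes were -1.66 to -1.14 for Bdh1, -0.94 to -0.68 for Elovl6 and -0.63 to -0.48 for Srebf1. With Elovl3 included, the count of members passing was 4 in the full fit. It was 0 without untreated replicate 1, untreated replicate 2 or antiPD1 replicate 3, and 7 without untreated replicate 3. It was also 0 when antiPD1 and untreated libraries were fitted alone. No member passed with antiPD1 replicate 3 and combination replicate 1 both left out or with the hepatocyte marker covariate, both added after seeing the data.

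**Figure D3:**
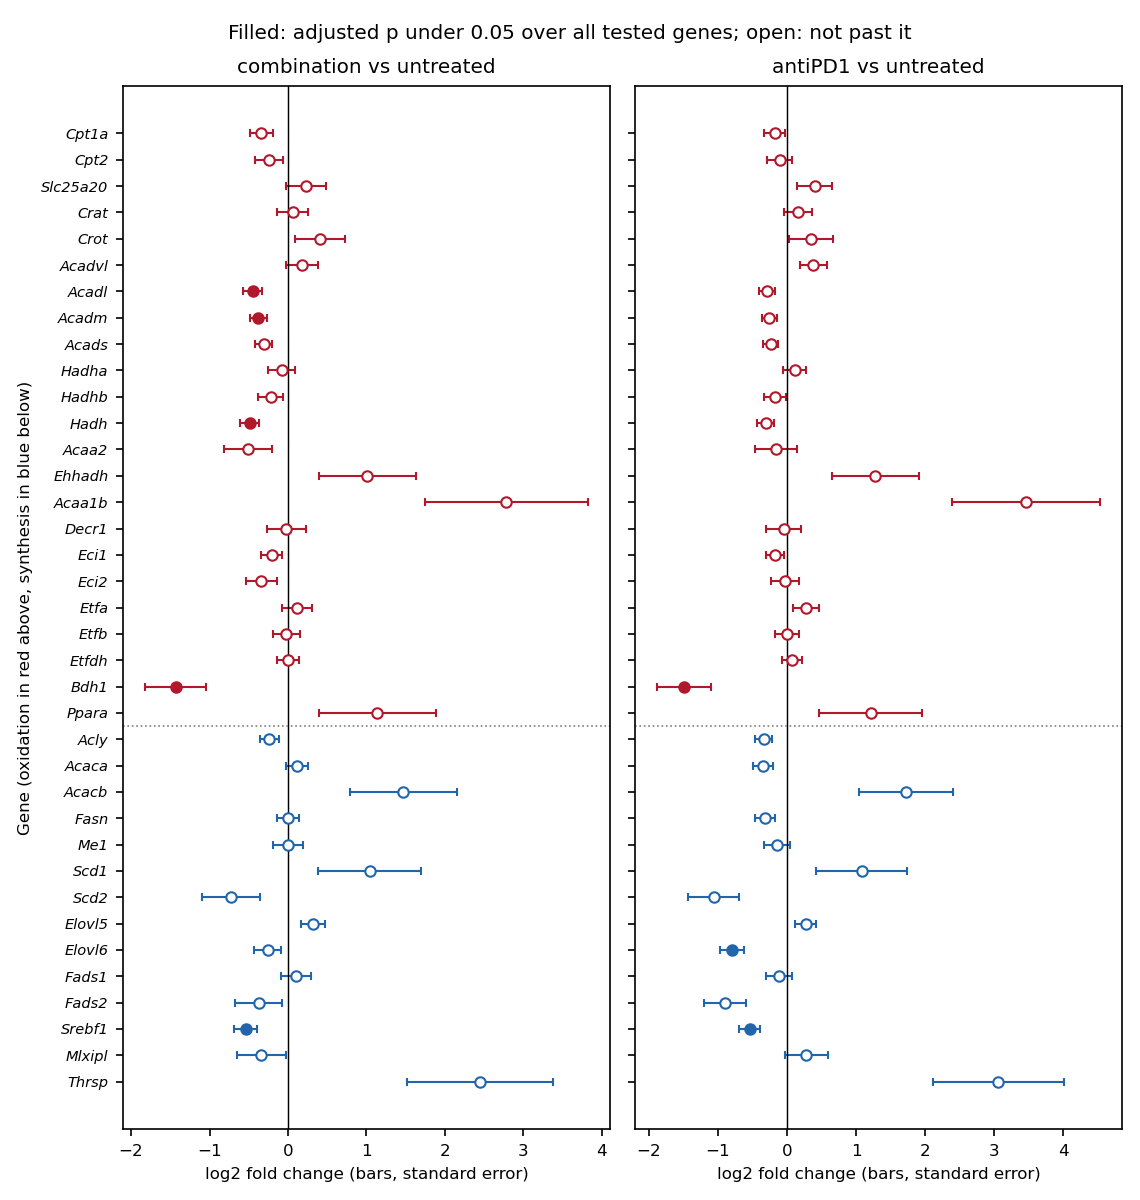
Log2 fold changes of 37 members with standard errors, for the combination (left) and antiPD1 (right) against untreated libraries; filled points passed at an adjusted p of 0.05. Elovl3 is left out because its untreated counts were 5 in all. Acadl, Acadm, Hadh, Bdh1 and Srebf1 are filled on the left, and Bdh1, Elovl6 and Srebf1 on the right.

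Elovl3 (chr19:46131897-46135694, plus strand) had 15.2, 1.08 and 10.1 CPM in combination, 0.283, 2.41 and 25.3 in antiPD1, 0.0300, 0.400 and 0.393 in IFNa, and 0.0648, 0.0677 and 0.0305 in untreated libraries. Every combination and antiPD1 library was above every untreated one, with spreads of more than 10-fold inside each of those groups. Summed over 3 libraries there were 943 counts in combination, 876 in antiPD1, 30 in IFNa and 5 in untreated. The scaled ratio to untreated was 165 for the combination (95% interval 70.7 to 511) and 159.6 for antiPD1 (68.1 to 493). It was 5.25 for IFNa (2.02 to 17.3), but the IFNa libraries overlapped the untreated ones and Elovl3 did not pass there (edgeR adjusted p = 0.896). All these intervals cover counting error only and leave out the spread between libraries. AntiPD1 replicate 3 held 779 of the 876 counts, and without it the antiPD1 ratio was 25.3 (10.5 to 79.6). Without combination replicate 1 the ratio of the combination was 106 (45.3 to 329.7).

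Several other members were highest in the same libraries as Elovl3, a group picked after its values were seen. They were the peroxisomal genes Ehhadh (bifunctional enzyme) and Acaa1b (thiolase), together with Ppara, Acacb, Scd1 and the lipogenic protein gene Thrsp. Acaa1b had 28.7, 5.2 and 12.4 CPM in combination, 5.58, 7.26 and 61.0 in antiPD1, 1.71, 3.52 and 4.45 in IFNa, and 1.30, 0.711 and 4.67 in untreated libraries. Thrsp had 8.4, 0.960 and 4.55 CPM in combination, 3.11, 1.97 and 16.2 in antiPD1, 2.01, 0.772 and 1.28 in IFNa, and 0.616, 0.474 and 1.44 in untreated libraries. Ehhadh had 16.9, 5.29 and 7.94 CPM in combination, 8.52, 3.88 and 24.0 in antiPD1, 7.45, 5.29 and 4.98 in IFNa, and 3.63, 3.62 and 7.67 in untreated libraries.

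For each of these 3 genes the highest library of all 12 was antiPD1 replicate 3, and the next was combination replicate 1. Acaa1b and Thrsp came close to the threshold in antiPD1 (edgeR adjusted p = 0.0529 and 0.0525), with log2 fold changes of 3.46 ± 1.07 and 3.06 ± 0.95, and Ehhadh did not (1.28 ± 0.63, edgeR adjusted p = 0.174). Acaa1b shares near-identical sequence with Acaa1a, so reads could be split between them and its level is uncertain. Ppara reached 21.3 CPM in combination replicate 1, 23.1 in antiPD1 replicate 3 and 16.2 in IFNa replicate 1, and it was between 3.68 and 7.53 in the other 9 libraries.

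The same libraries were the highest for the summed adult hepatocyte markers without Alb. The sum of 21 markers was 6085 CPM in antiPD1 replicate 3 and 3491 in combination replicate 1, and 2309 in IFNa replicate 1, against 682, 837 and 1194 in the untreated libraries. Of the 22 markers including Alb, 21 had a higher mean in the combination (median log2 fold change 1.67) and 22 in antiPD1 (2.33). The test was passed by 1 and 3 of them, all higher, beside 7.58% and 9.76% of all tested genes. With the hepatocyte marker covariate, the combination's log2 fold change was -0.30 for Ehhadh (1.01 without the covariate), -0.54 for Ppara (1.14), -0.52 for Scd1 (1.04), 0.00 for Acacb (1.47), 0.46 for Thrsp (2.45) and 1.04 for Acaa1b (2.78). That of antiPD1 was -0.43 for Ehhadh (1.28 without it), -0.95 for Scd1 (1.08), -0.81 for Ppara (1.21), -0.22 for Acacb (1.72), 0.57 for Thrsp (3.06) and 0.99 for Acaa1b (3.46). None of these passed. The genes were picked for the libraries in which they were high, and the covariate is highest in the same libraries. Lower fold changes were thus built into this fit, and the part of hepatocytes in the results was not tested. Adipocytes are also known to express several of these genes. Of 10 adipocyte markers, Lpl, Fabp4, Cidec and Adrb3 had counts in all 12 libraries. Lep had none, and Adipoq, Plin1 and Ucp1 had 3, 2 and 1 counts in all. The list summed to 209 to 368 CPM in combination, 118 to 342 in antiPD1, 194 to 233 in IFNa and 195 to 236 in untreated libraries, and its part in the results was not tested. Most of that sum was Lpl, at 178 to 323 CPM in combination, 97.2 to 262 in antiPD1, 138 to 181 in IFNa and 167 to 193 in untreated libraries. Cidec and Adrb3 were lower in every combination and antiPD1 library than in any untreated library. Fabp4 alone was at 27.8 to 42.6 CPM in combination, 18.3 to 101 in antiPD1, 40.0 to 57.1 in IFNa and 16.9 to 38.9 in untreated libraries. Immune markers were high in these groups too. The 10 T cell markers summed to 88.6 to 115 CPM in combination, 56.7 to 281 in antiPD1, 13.2 to 45.4 in IFNa and 26.1 to 31.3 in untreated libraries, and their part in the results was not tested.

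**Figure D4:**
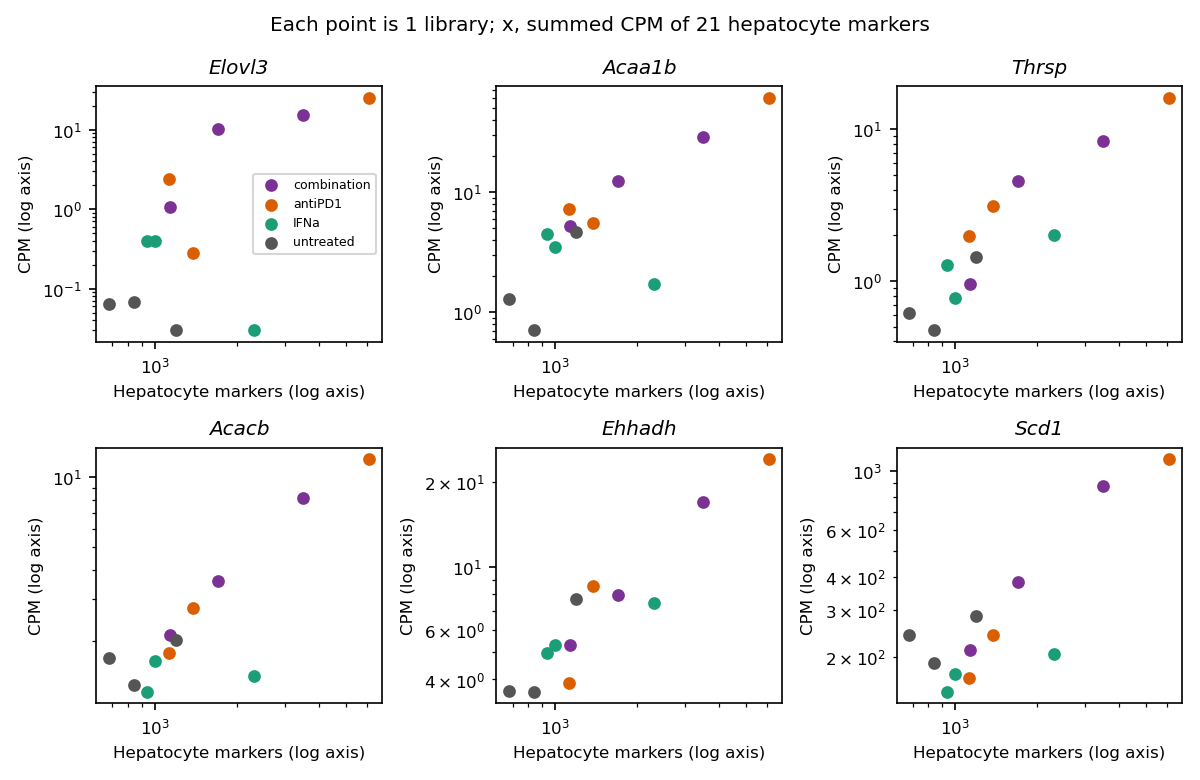
CPM of 6 members against the summed CPM of 21 adult hepatocyte markers, both on log axes, 1 point per library. AntiPD1 replicate 3 (6085 CPM) is at the upper right in each panel and combination replicate 1 (3491 CPM) next to it, while IFNa replicate 1 (2309 CPM) lies below combination replicate 3 (1698 CPM) in each panel.

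Scd1 and Scd2, desaturases that both put a double bond into stearate, differed in which libraries were high. Scd1 had 877, 212 and 384 CPM in combination, 242, 166 and 1107 in antiPD1, 206, 173 and 148 in IFNa, and 241, 189 and 284 in untreated libraries. Scd2 had 730.1, 649 and 677 CPM in combination, 814, 565 and 256 in antiPD1, 1119, 646 and 578 in IFNa, and 1257, 1330.1 and 831 in untreated libraries. The library with the most Scd1 was therefore the one with the least Scd2. As a ratio of FPKM, Scd1 over Scd2 was 4.40 in antiPD1 replicate 3 and 1.21 in combination replicate 1, and it was 0.191, 0.140 and 0.341 in the untreated libraries. Neither gene passed in any comparison (for Scd2 in antiPD1, log2 fold change -1.06 ± 0.37 and edgeR adjusted p = 0.0772), and both are uncertain as close copies of each other.

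The third comparison set IFNa against untreated samples. The synthesis genes lay mostly below the untreated level, with 13 of 14 lower and a median log2 fold change of -0.33 beside 0.01 for all tested genes, but no member passed. The 23 oxidation genes were close to the untreated level, with a median of -0.03. Of all tested genes 0% passed in this comparison, and 5.59% had an unadjusted p under 0.05. Among the members, 6 of 14 synthesis genes and 0 of 23 oxidation genes had one, and DESeq2 and limma called 0 members as well.

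Those 6 were Elovl6, Fads2, Acly, Fads1, Srebf1 and Fasn. Elovl6 was nearest to passing among the lower ones, with a log2 fold change of -0.61 ± 0.17 (edgeR adjusted p = 0.845). Fads2 was at -1.02 ± 0.31 (0.866), Fads1, the delta-5 desaturase, at -0.47 ± 0.19 (0.881) and Acly at -0.38 ± 0.12 (0.866). Elovl6, Fads1 and Fads2 were lower in 3 of 3 IFNa libraries than in any untreated library, and a 4th gene without overlap was Hadha; 5.22% of all tested genes were lower in that way. No member was higher without overlap, and 4.95% of all tested genes were. On the higher side the member nearest to passing was Elovl3, described above.

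The libraries of the IFNa group differed in how far the set was down. The median of the 15 genes relative to the untreated mean was -0.19, -0.26 and -0.55 in IFNa replicates 1, 2 and 3, and 0.11, 0.05 and -0.19 in the untreated libraries. IFNa replicate 1 thus met untreated replicate 3, and the groups touched. The per-library medians were 0.25, -0.13 and -0.02 in combination and -0.28, -0.28 and -0.34 in antiPD1 libraries. All these medians include Elovl3, unlike the medians of fold changes over 14 genes. Elovl3 was above the untreated mean in every combination and antiPD1 library. The 15 genes come from the same libraries and are not independent measurements.

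Further comparisons asked what each agent added to the other. Between combination and antiPD1, 0 members passed and 0% of all tested genes did, with 4.76% under an unadjusted p of 0.05. The members nearest to passing were Acaca, higher by a log2 fold change of 0.47 ± 0.14 (edgeR adjusted p = 0.991), and Mlxipl, lower by -0.62 ± 0.31 (0.997). Acaca had 55.7, 49.1 and 47.9 CPM in combination, 37.0, 37.0 and 35.9 in antiPD1, 47.6, 47.3 and 31.9 in IFNa, and 50.8, 45.4 and 44.3 in untreated libraries. Its combination libraries were all above the antiPD1 ones, as were those of Fasn and Elovl6, 3 of 14 synthesis genes and 0 of 23 oxidation genes against 7.49% of all tested genes. No member was lower without overlap, beside 6.67% of all. Mlxipl, which encodes ChREBP, had 25.2, 20.7 and 17.5 CPM in combination, 17.0, 29.7 and 51.0 in antiPD1, 22.8, 26.1 and 27.5 in IFNa, and 30.6, 26.4 and 23.2 in untreated libraries. Its combination and antiPD1 libraries overlapped widely. DESeq2 and limma also called 0 members, and 3 had an unadjusted p under 0.05.

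Between combination and IFNa, 0 members passed, beside 0.956% of all tested genes (0.342% higher and 0.614% lower). Elovl3 was at 15.2, 1.08 and 10.1 CPM in combination and 0.0300, 0.400 and 0.393 in IFNa libraries. The lower member nearest to passing was Acadl, with a log2 fold change of -0.45 ± 0.12 (edgeR adjusted p = 0.0772). The synthesis genes were on the higher side here, with 11 of 14 above 0, a median of 0.33 and 8 of 14 higher without overlap, against 20.3% of all tested genes. The oxidation genes had a median of -0.01. At an unadjusted p under 0.05 there were 12 of 37 members and 23.1% of all tested genes. Among the 37 members DESeq2 called Acadl, and limma called 0.

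The interaction asked whether the effect of IFNa was different with and without the anti-PD-1 antibody. It is the log2 fold change of combination over antiPD1 minus that of IFNa over untreated. For the synthesis genes it was mostly positive, 11 of 14 with a median of 0.47, beside -0.03 for all tested genes and -0.09 for the oxidation genes. No member and 0% of all tested genes passed, whereas 6 synthesis genes, 0 oxidation genes and 6.06% of all tested genes had an unadjusted p under 0.05. The smallest p of the 6 belonged to Elovl6, at 1.15 ± 0.24 (edgeR adjusted p = 0.370), which passed with DESeq2 and under no other setting run. Fads2 was at 1.56 ± 0.43 (0.626), Fads1 at 0.70 ± 0.27 (0.799), Fasn at 0.64 ± 0.20 (0.760), Acaca at 0.62 ± 0.20 (0.773) and Acly at 0.48 ± 0.18 (0.799).

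On the negative side Eci2, the peroxisomal and mitochondrial enoyl-CoA isomerase, was nearest to passing (-0.47 ± 0.28, edgeR adjusted p = 0.814). It had 36.7, 36.4 and 30.3 CPM in combination, 42.6, 33.4 and 52.1 in antiPD1, 64.1, 38.1 and 44.4 in IFNa, and 46.7, 44.4 and 40.0 in untreated libraries. Only IFNa replicate 1 was far from the others.

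**Figure D5:**
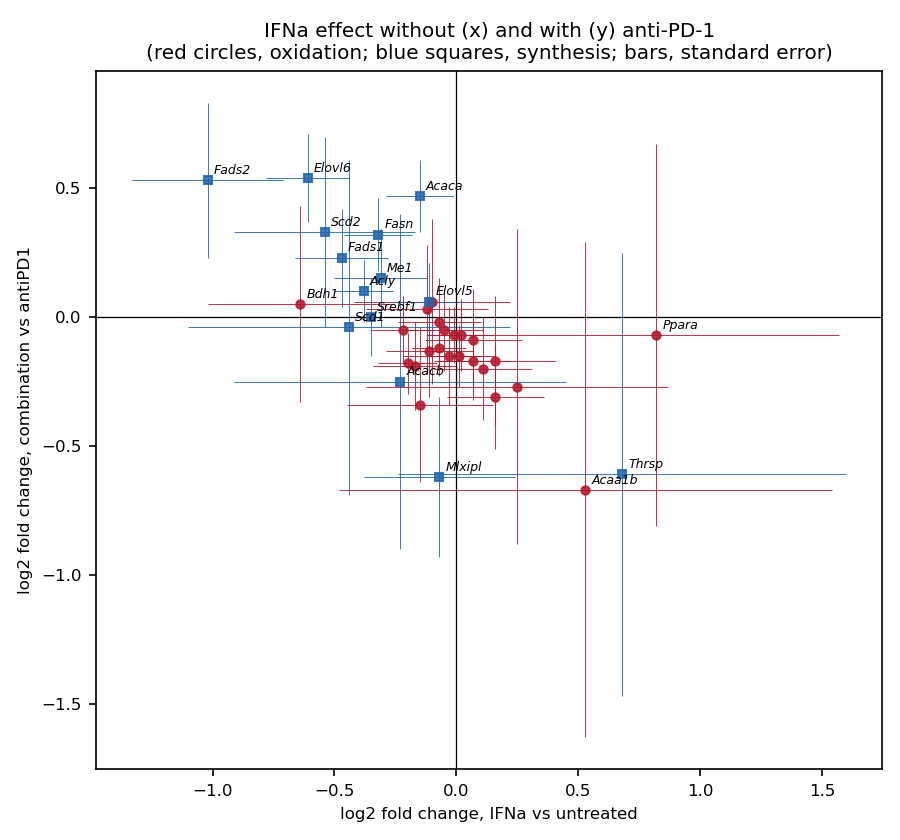
Log2 fold change of IFNa over untreated (x) and of combination over antiPD1 (y) for 37 members, with standard errors; red circles are oxidation genes, blue squares synthesis genes, and Elovl3 is left out. Elovl6, Fads2, Fads1, Fasn and Acaca lie left of 0 and above 0, while most oxidation genes gather near the origin and below 0 on the y axis.

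Other genes of fatty acid metabolism were read from 9 lists of 149 genes, of which 140 were tested. In the combination 4 of the 140 rose and 10 fell, in antiPD1 9 rose and 12 fell, and 2 fell between combination and IFNa. Of all tested genes, 7.58% were higher and 5.0% lower in the combination, 9.76% and 5.08% in antiPD1, and 0.614% were lower between combination and IFNa. None passed in IFNa against untreated, combination against antiPD1 or the interaction. The median log2 fold changes of the 140 genes were 0.01 in the combination and 0.10 in antiPD1 against untreated.

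Around oxidation, 1 of 16 further genes listed as mitochondrial rose in both comparisons. It was Nudt7, which hydrolyses coenzyme A in peroxisomes, at 18.8 ± 12 CPM in combination, 15.2 ± 19.1 in antiPD1, 4.10 ± 1.53 in IFNa and 1.12 ± 1.03 in untreated libraries (SD, n = 3 each). Its log2 fold changes were 4.06 ± 1.04 and 3.75 ± 1.03 (edgeR adjusted p = 0.0346 and 0.0370), and its highest libraries were antiPD1 replicate 3 (37.3 CPM) and combination replicate 1 (29.7 CPM). The peroxisomal list of 17 genes had 1 rise and 2 falls in the combination and 2 rises and 1 fall in antiPD1. Abcd2, a peroxisomal transporter of very-long-chain acyl groups, fell to 17.5 ± 7.07 CPM in combination and 14.7 ± 3.86 in antiPD1, against 48.6 ± 10.2 in untreated libraries, with log2 fold changes of -1.47 ± 0.31 and -1.72 ± 0.31 (edgeR adjusted p = 0.0200 and 0.0191).

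Of 7 ketone body genes none passed in the combination, and 1 fell in antiPD1: Aacs, which activates acetoacetate for lipid synthesis (-0.45 ± 0.13, edgeR adjusted p = 0.0407). Among 19 genes of uptake and activation, the fatty acid transport protein gene Slc27a4 fell in the combination (-0.54 ± 0.11, edgeR adjusted p = 0.0208) and in antiPD1 (-0.48 ± 0.11, 0.0251). The long-chain acyl-CoA synthetase gene Acsl1 fell in antiPD1 (-0.71 ± 0.18, 0.0309), where it averaged 151 ± 18.7 CPM, against 246 ± 29.1 in untreated libraries. Of 11 further PPARalpha targets 1 rose and 1 fell in the combination. Vnn1, a pantetheinase, rose (1.29 ± 0.37, edgeR adjusted p = 0.0464), and Creb3l3, a liver transcription factor, fell (-1.13 ± 0.34, edgeR adjusted p = 0.05, just under the threshold). In antiPD1 1 of the 11 rose.

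Around synthesis, 2 of 19 further genes of synthesis and elongation fell in the combination. They were Tecr, the last reductase of the elongation cycle (-0.46 ± 0.13, edgeR adjusted p = 0.0424), and Elovl2, an elongase of polyunsaturated chains (-1.35 ± 0.38, 0.0427). In antiPD1 3 of the 19 fell. Among 18 lipid regulators none passed in the combination, and 2 rose and 2 fell in antiPD1. Srebf2, the sterol counterpart of Srebf1, fell (-0.67 ± 0.20, edgeR adjusted p = 0.0447), as did Nr0b2, the corepressor SHP (-1.64 ± 0.44, 0.0340). Of 11 genes of NADPH supply 1 rose in both comparisons, the mitochondrial folate enzyme gene Aldh1l2 (1.35 ± 0.37 in the combination, edgeR adjusted p = 0.0407, and 1.66 ± 0.37 in antiPD1, 0.0225).

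In the list of 22 genes of triglyceride synthesis, lipolysis and droplets, 4 fell in the combination, and 2 rose and 3 fell in antiPD1. Abhd5, the coactivator of adipose triglyceride lipase, had 22.5, 19.6 and 19.8 CPM in combination, 25.1, 23.2 and 27.3 in antiPD1, 34.9, 33.6 and 35.0 in IFNa, and 33.9, 32.4 and 33.4 in untreated libraries. Combination and antiPD1 were both clear of IFNa and untreated. Abhd5 fell by 0.69 ± 0.10 on the log2 scale in the combination (edgeR adjusted p = 0.00819), by 0.40 ± 0.10 in antiPD1 (0.0262) and by 0.74 ± 0.10 between combination and IFNa (0.0120). Mogat2, a monoacylglycerol acyltransferase, averaged 1.36 ± 0.605 CPM in combination and 2.16 ± 0.503 in antiPD1, against 8.26 ± 3.04 in untreated libraries (edgeR adjusted p = 0.0177 and 0.0303).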

How the data were processed

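The deposited tables hold whole-number read counts per gene and FPKM per gene for each of the 12 libraries, made by the authors. HISAT2 2.1.0, HTSeq, Cufflinks and the build mm10 are named in the submitters' processing notes; which annotation and strand setting were used, and which tool did what, is not given in the sources used here.

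Counts were analysed with edgeR 4.0.16 (R 4.3.3): genes were kept by filterByExpr with a minimum count of 10, scaled by TMM and fitted over all 12 libraries with 1 mean per group, and the robust quasi-likelihood test was adjusted by Benjamini-Hochberg over 14330 genes at a threshold of 0.05. CPM are TMM-scaled. FPKM served for levels between genes and for limma 3.58.1 on log2(FPKM + 1), an alternative, as were log2(FPKM + 0.1), DESeq2 1.42.0, RLE size factors, no filter, fits of the compared groups alone, and libraries left out. In data simulated for the combination against untreated, 48.3% of 2-fold and 84.1% of 4-fold changes were recovered among 14191 genes. For the interaction 18.9% and 69.2% were recovered among 14212 genes, so most simulated 2-fold differences were missed there. The changes were set in the combination libraries only, in 200 and 197 of the tested genes. All other means were equal between groups, and no library was set apart from its group. Recovery in the real data may therefore differ. Gene coordinates are from GENCODE M21 on mm10, and promoters from RefSeq on GRCm38.p6.

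The members and all lists were chosen with earlier results of these data known. Values per library are given for members that passed in any comparison, for those nearest the threshold where none passed, and for the highest and lowest member of each set. From each further list up to 2 passing genes with the smallest p are named. The result of 1 such gene is not reported here. Counting intervals are exact and cover counting error only.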

Additional observations from a re-analysis of the deposited data

Results flagged for a closer look

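For 3 synthesis genes every library moved one way under one contrast and the opposite way under the matching contrast. Acaca was lower in all antiPD1 than in all untreated libraries and higher in all combination than in all IFNa libraries, and the difference between these effects was 0.62 on the log2 scale (edgeR adjusted p = 0.773). Fasn did the same, with a difference of 0.64 (edgeR adjusted p = 0.760). For Elovl6 both the effect of antiPD1 (without and with IFNa) and that of IFNa (without and with antiPD1) turned round in this way, with a difference of 1.15 (edgeR adjusted p = 0.370). None of these differences passed the interaction test.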

How the results depend on the processing

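No member that passed reversed its direction in that comparison under any setting run. Others did, among them Ehhadh, Ppara, Scd1 and Acadvl (0.18, and -0.18 in the combination) with the hepatocyte marker covariate. The counts here include Elovl3, which is given as a description only. Over the other 37 members the full fit had 5 in the combination and 3 in antiPD1. In the combination against untreated, 6 members passed; the count was 1 with limma on log2(FPKM + 1), 2 on log2(FPKM + 0.1), 0 with limma without a filter, 12 with IFNa replicate 1 and antiPD1 replicate 3 both left out, 0 with the hepatocyte marker covariate, and 0 to 10 with 1 library left out. In antiPD1 against untreated, 4 passed; the count was 0 with only the groups compared, 9 with DESeq2, 2, 2 and 1 with the limma fits in the same order, 0 with antiPD1 replicate 3 and combination replicate 1 both left out, 0 with the covariate, and 0 to 7 with 1 library left out. Between combination and IFNa, 0 passed; the count was 2 with only the groups compared, 2 with DESeq2, 3 with IFNa replicate 1 and antiPD1 replicate 3 left out, and 0 to 4 with 1 library left out. The interaction gave 1 with DESeq2. The covariate and the fit without antiPD1 replicate 3 and combination replicate 1 were chosen after seeing the data. The cause of these differences was not tested.

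Same-numbered samples share only a number: their deviations correlated from -0.304 to 0.503, with 8 of 18 pairs over 0.1. With the replicate block 6 members passed in the combination and 8 in antiPD1, Elovl3 included. In the combination Bdh1 was lost (edgeR adjusted p = 0.0531) and Acaa1b gained (0.0442). The median of the synthesis genes in IFNa stayed below 0 under every setting run. The median of the 23 oxidation genes was near 0 and changed sign in every comparison under some setting. It ran from -0.33 to 0.04 in the combination, -0.26 to 0.10 in antiPD1, -0.14 to 0.04 in IFNa, -0.25 to 0.09 between combination and antiPD1, -0.18 to 0.08 between combination and IFNa and -0.21 to 0.13 for the interaction. With the covariate 22 of the 23 were lower in the combination (median -0.33) and in antiPD1 (-0.26).

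Counts over all tested genes moved by over 1.5 times in many settings. The combination's 1803 was 3789 with only the groups compared, 2979 with DESeq2, 996 and 1077 with limma (added 1 and 0.1), 4200 without IFNa replicate 1 and antiPD1 replicate 3, 283 with the covariate, and 33 to 2917 with 1 library left out. The 2126 of antiPD1 was 0 with only the groups compared, 3291 with DESeq2, 947, 1046 and 732 with limma, 27 without antiPD1 replicate 3 and combination replicate 1, 3 with the covariate, and 5 to 3027 with 1 library left out. Between combination and IFNa the 137 was 1132 with only the groups compared, 1666 with DESeq2, 542 with the block and 0 to 1452 with 1 library left out. DESeq2 gave 37 in IFNa, 15 between combination and antiPD1 and 55 for the interaction, where edgeR gave 0.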
